A study of Drosophila melanogaster with 6 samples.

Results

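Structural cuticle protein genes of the fly were read in *Drosophila* eye imaginal discs, the larval epithelium that later forms the adult eye. They were chosen by name: a gene belonged to them if 1 or more probe sets of the array named it alone and its symbol began with *Cpr*, *Twdl*, *Lcp*, *Ccp84A* or *Acp65A*. This gave 101 of the 11982 genes read, of which 66 were *Cpr*, 24 *Twdl*, 7 *Lcp*, 3 *Ccp84A* and 1 *Acp65A* genes. RNA came from eye discs of wandering larvae of the last instar, with 3 arrays for the wild type (*w1118*) and 3 for the mutant of the microRNA gene *mir-998* (*w; mir-998[exc222]*). Both genotypes carry a *white* mutation, and all mutant arrays come from a single excision allele that retains a small *P*-element remnant in the *mir-998* hairpin. The titles call the arrays biological replicates without saying whether they came from separate crosses, and the p-values cover only the variation among these arrays, part of which may be technical. The question was which of these genes the eye disc expresses before any pupal or adult cuticle is laid down, and whether they differ between the genotypes.

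Insect cuticle is a layered matrix of chitin fibers and proteins that epidermal cells secrete on their apical side. CPR proteins carry the Rebers and Riddiford domain, which binds chitin. They include the products of the *Cpr*, *Lcp*, *Ccp84A* and *Acp65A* genes, but the name rule does not cover the whole family. Tweedle proteins (*Twdl* genes) are a separate family of cuticle proteins. The genes lie in tandem groups, and their transcription follows the ecdysone pulses that time each molt, so that different sets build the larval, pupal and adult cuticles. *Lcp* genes are named for larval cuticle and *Acp65Aa* for adult cuticle, and the corneal lens of the adult eye contains Cpr66D and Cpr72Ec.

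The values are log2 expression values, in which 1 unit is a 2-fold difference. Probe sets differ in how strongly they bind their target, so that the level of 1 gene cannot be set against the level of another, and a gene was read only as above or near background. Background was taken from 20 control probe sets for bacterial and tag sequences that the fly lacks. The brightest of them averaged 4.81 over the 6 arrays. A gene was called above background if its own mean over the 6 arrays, both genotypes together, exceeded this value. The array medians were alike, at 5.25 to 5.30, which the normalization brings about. The 3' minus 5' signal of the *Act5C* control probe sets, a gauge of RNA quality, differed between arrays. It was 1.19, 2.18 and 2.86 in wild type against 3.57, 2.03 and 3.25 in the mutant. Its part in the cuticle protein values was not tested. All 12 eye disc marker genes measured were above background, with a list mean of 9.52 in wild type replicate 3 and 10.01 to 10.28 on the other 5 arrays. The other markers were not silent. The mean of 7 muscle genes was 11.27 to 11.59 over the wild type arrays but 10.73 to 11.16 over the mutant arrays, and that of 10 hemocyte genes was 7.66 to 8.25 against 8.52 to 8.97. The muscle list had 0 positive and 7 negative differences and the hemocyte list 10 positive and 0 negative, with 1 hemocyte gene called, *NimC1* (1.64, adjusted p = 0.0369 by limma). The eye disc list also had 12 positive and 0 negative differences, with a median of 0.24 and 0 genes called. The hemocyte and eye disc lists share the gene *lz* (difference 0.59), so their counts are not independent. The part of these lists in the cuticle protein values was not tested. The fat body list (5 genes) ranged from 7.12 to 9.75 in wild type and from 6.81 to 9.48 in the mutant, and the salivary gland list (8 genes) from 8.62 to 11.54 and from 9.05 to 12.20. In whole discs, fewer cells of a type and less RNA per cell cannot be told apart.

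In wild type discs the signal of the families ran from background to far above it. By the mean over both genotypes, 55 of the 101 genes were above background (54.5%), against 8180 of the 11982 genes read (68.3%). The 55 were 36 of 66 *Cpr* genes, 11 of 24 *Twdl* genes, 5 of 7 *Lcp* genes, 2 of 3 *Ccp84A* genes and *Acp65Aa*. Some were barely above, such as *TwdlX* and *TwdlV*, with wild type means of 4.81 and 4.86 against the cutoff of 4.81. The median of the wild type probe set means was exceeded by 45 of the 101 genes, against 7430 of the 11982. The wild type means ran from 3.69 to 12.19. Of the 101, 8 genes exceeded the upper quartile of the array (8.88 to 8.94) on all 3 wild type arrays, and these were 6 *Cpr* genes, *TwdlT* and *Lcp65Ac*.

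**Figure D1:**
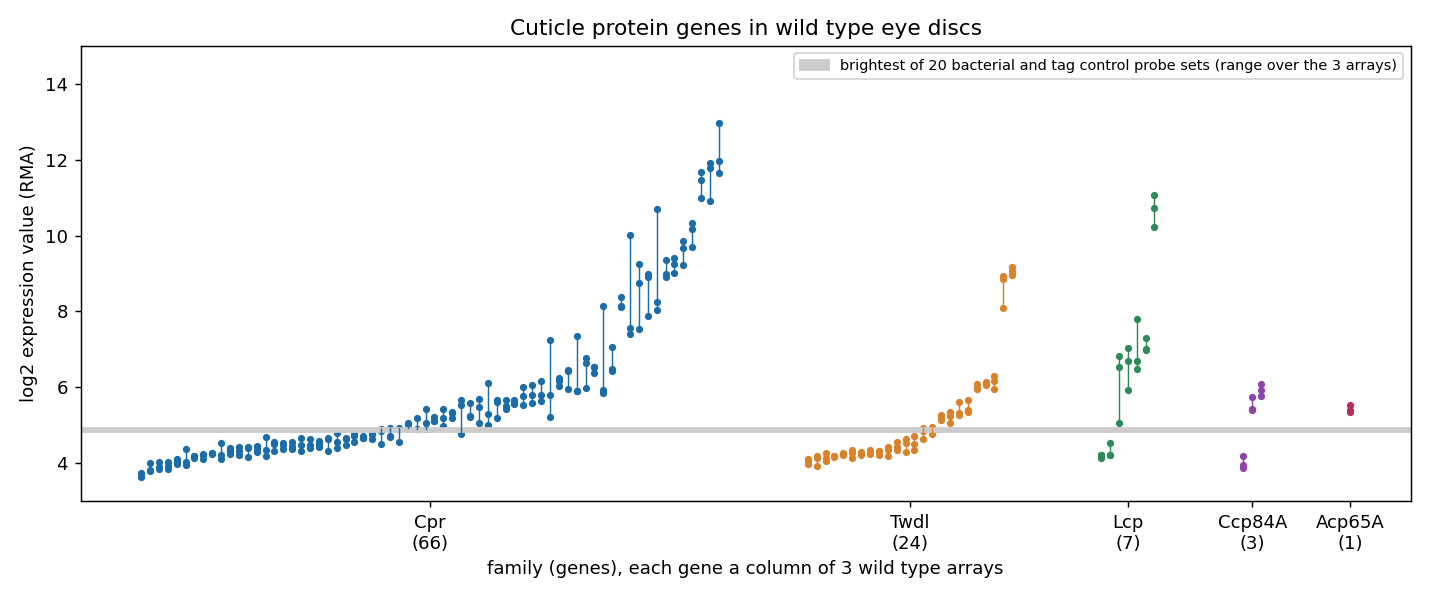
Log2 expression value of each of the 101 cuticle protein genes on the 3 wild type arrays (points, joined by a line per gene), ordered by mean within each family, with the brightest control probe set as a grey band. Some *Cpr*, *Twdl* and *Lcp* genes stand well above the band. By the mean over both genotypes, 30 of 66 *Cpr*, 13 of 24 *Twdl* and 2 of 7 *Lcp* genes were near background.

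*Cpr49Ac* and *Cpr12A* were among the *Cpr* genes far above background. For *Cpr49Ac* the values were 11.98, 11.64 and 12.96 in wild type against 12.73, 12.67 and 12.62 in the mutant. Wild type replicate 3 was the highest of the 6 arrays and the other wild type arrays were the lowest, so the genotypes overlapped, and the difference was 0.48 (SE 0.317, adjusted p = 0.674 by limma). Without wild type replicate 3 it was 0.863 (adjusted p = 0.0288). *Cpr12A* gave 11.77, 10.91 and 11.91 in wild type against 11.36, 11.32 and 11.15 in the mutant. Its mutant arrays lay inside the range of the wild type arrays, with a difference of -0.25 (SE 0.257, adjusted p = 0.818 by limma). The lens protein gene *Cpr66D* was also well above background before any lens is made, at 9.86, 9.67 and 9.22 in wild type against 9.19, 9.55 and 8.63 in the mutant. The genotypes overlapped for *Cpr66D* (difference -0.46, adjusted p = 0.613 by limma). In contrast, the lens gene *Cpr72Ec* was near background in both genotypes, with means of 4.47 and 4.46.

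Of the *Twdl* genes, *TwdlT* and *TwdlE* were well above background. *TwdlT* was read at 9.07, 8.97 and 9.18 in wild type against 8.82, 8.97 and 9.01 in the mutant. *TwdlE* was read at 8.94, 8.86 and 8.09 in wild type against 9.12, 8.91 and 8.54 in the mutant. For both genes the arrays of the genotypes overlapped. *TwdlD*, an allele of which gives larvae and pupae a squat body shape, was near background at a wild type mean of 4.26.

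Of the *Lcp* genes, *Lcp65Ac*, described with the mutant below, and *Lcp65Aa* were well above background. *Lcp65Aa* gave 7.02, 6.98 and 7.31 in wild type against 7.03, 7.24 and 7.28 in the mutant, with overlapping arrays. *Ccp84Ae* and *Ccp84Ac*, of the cuticle gene group at 84A, were modestly above background, at 5.76, 5.92 and 6.08 and at 5.43, 5.41 and 5.74 in wild type, respectively. *Acp65Aa*, named for the adult cuticle, stood at 5.34, 5.41 and 5.53 in wild type, which is also above the brightest control probe set.

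Next, the genotypes were compared. Few cuticle protein genes passed the test. Only *Cpr65Av* rose in the mutant at an adjusted p at or under 0.05 (limma), and 0 of the 101 genes fell. This is 0.99% of the genes, against 1.93% of all genes read, where 0.968% were higher and 0.96% were lower. At an unadjusted p at or under 0.05, 10 of the 101 genes differed (9.9%), 6 higher and 4 lower, against 13.9% of all genes. The arrays of the genotypes did not overlap for 18 genes, 10 higher and 8 lower, which is 17.8% against 18.1% of all genes. By these counts the cuticle protein genes were close to, or under, the share of all genes. A gene near background can show little change, yet among genes above background the share called was also 1 of 55 cuticle protein genes (1.82%) against 225 of 8180 (2.75%).

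The median log2 fold change over the 101 genes was -0.01, with 46 genes above 0 and 54 below, while that of all genes read was 0.0033. By family, the median was -0.03 for *Cpr* (28 above 0, 38 below), 0.005 for *Twdl* (12 above, 11 below), 0.27 for *Lcp* (5 above, 2 below), -0.10 for *Ccp84A* (0 above, 3 below) and 0.01 for *Acp65Aa*. After each array's median was subtracted, the median was 0.02 over the 101 genes and 0.0017 over the *Cpr* genes, so the sign of both depended on the centering. Large changes made up a larger share than over all genes, a difference that was not tested. The size of the change was at least 1 for 6 of the 101 genes (5.94%), 2 higher and 4 lower, and for 199 of all genes read (1.66%). It was at least 0.5 for 15 cuticle protein genes (14.9%), 6 higher and 9 lower, and for 766 of all genes (6.39%). Of the 6 genes with a change of at least 1, only *Cpr65Av* passed the test. The plot of change against level shows that the larger changes carried wide intervals.

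**Figure D2:**
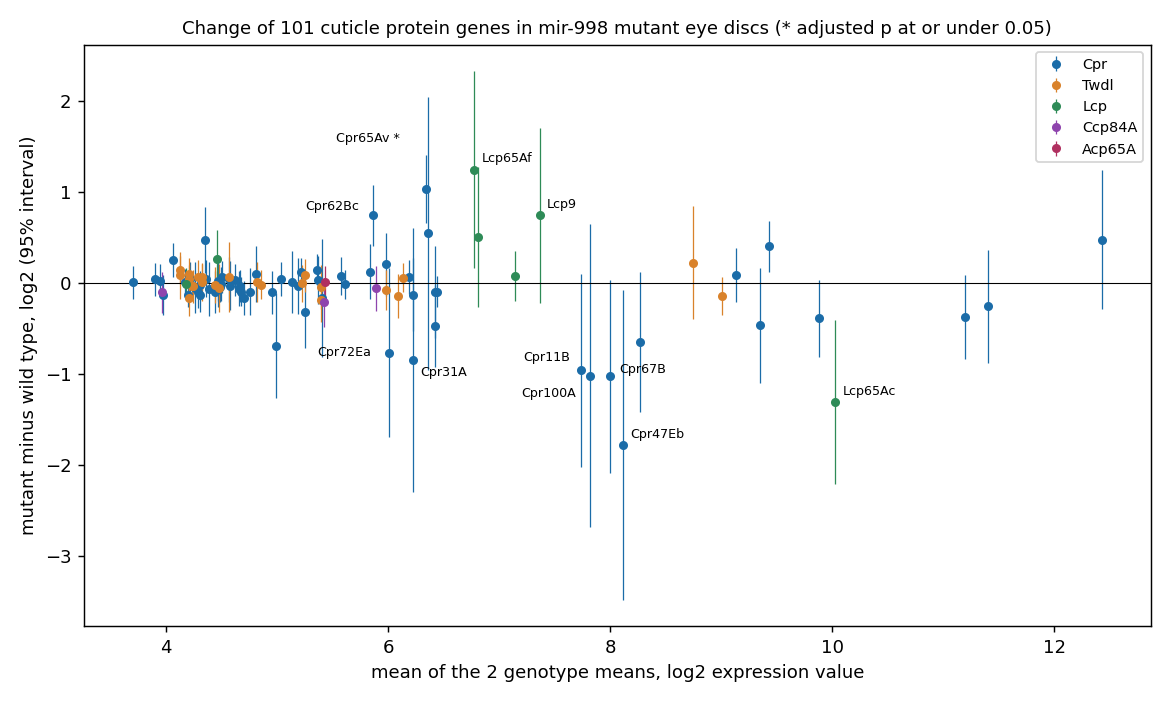
Difference in log2 expression value between *mir-998* mutant and wild type (points, with the 95% interval from limma, n = 3 arrays per genotype) against the mean of both genotypes, colored by family. Most genes lie within 0.25 of 0, and of the genes that lie beyond 1 only *Cpr65Av*, marked by an asterisk, passed the test.

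*Cpr65Av*, a CPR gene of the *Lcp65A* group, was read at 5.81, 5.59 and 6.06 in wild type against 7.03, 6.62 and 6.92 in the mutant. Every mutant array was above every wild type array. The difference was 1.04 (SE 0.154, 95% interval 0.67 to 1.41, adjusted p = 0.0295 by limma), a 2.05-fold higher value. The call depended on the number of arrays: it was lost when any 1 array was left out except wild type replicate 3, with adjusted p-values of 0.0585 to 0.138, while the difference stayed between 0.922 and 1.16 under all 14 alternatives tried.

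*Cpr62Bc*, another CPR gene, came closest to the threshold among the rest. It gave 5.67, 5.19 and 5.62 in wild type against 6.20, 6.17 and 6.35 in the mutant. The arrays did not overlap, and the difference of 0.75 (SE 0.139) had an adjusted p of 0.0687 by limma. It passed the threshold after a second quantile normalization (adjusted p = 0.0499) and with array weights (adjusted p = 0.0228). *Cpr65Ec* also had all mutant values above all wild type values, by a mean of 0.41, with an adjusted p of 0.217 by limma.

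*Lcp65Af* had the largest positive difference of the 101 genes. The values were 6.54, 6.84 and 5.07 in wild type against 7.67, 7.13 and 7.40 in the mutant. All mutant arrays were higher, but wild type replicate 3 lay far under the other wild type arrays, and the difference of 1.25 (SE 0.45) did not pass the test (adjusted p = 0.339 by limma). Without that array it was 0.71.

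*Lcp65Ac* went the other way. It was read at 11.07, 10.73 and 10.24 in wild type against 10.15, 8.78 and 9.19 in the mutant, so that the arrays just failed to overlap. The difference of -1.31 (SE 0.375) had an adjusted p of 0.22 by limma and was negative under all alternatives tried.

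The lowest log2 fold change was that of *Cpr47Eb*, at -1.78 (SE 0.707, adjusted p = 0.396 by limma). Here wild type replicate 1 stood at 10.70 and the other wild type arrays at 8.05 and 8.25, against 6.99, 7.78 and 6.90 in the mutant. The genotypes did not overlap, but leaving out that 1 wild type array brought the difference to -0.927. *Cpr67B* gave 8.74, 9.26 and 7.54 in wild type against 7.94, 7.34 and 7.19 in the mutant. Its low wild type array, replicate 3, fell among the mutant arrays, and the difference was -1.02 (SE 0.442, adjusted p = 0.45 by limma). Leaving out 1 array moved it between -0.65 and -1.51.

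*Cpr11B* differed in spread on the mutant side instead, with 8.38, 8.15 and 8.12 in wild type against 8.22, 6.31 and 7.26 in the mutant. Mutant replicate 1 was at the wild type level and the other mutant arrays were lower, with a difference of -0.95 (SE 0.441, adjusted p = 0.489 by limma). It was -0.477 without mutant replicate 2 and -1.43 without mutant replicate 1.

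In 3 further genes a single wild type array carried most of the negative difference. *Cpr100A* was read at 7.56, 10.01 and 7.40 in wild type against 7.44, 6.84 and 7.65 in the mutant, and its difference of -1.01 (adjusted p = 0.687 by limma) became -0.17 without wild type replicate 2. *Cpr31A* showed the same array apart, at 5.92, 8.15 and 5.86 in wild type against 5.70, 5.63 and 6.07 in the mutant, and its difference of -0.84 (adjusted p = 0.705 by limma) became -0.09 without it. For *Cpr72Ea*, wild type replicate 3 was apart. Its values were 5.91, 5.90 and 7.35 in wild type against 5.74, 5.52 and 5.62 in the mutant, and the difference of -0.76 (adjusted p = 0.543 by limma) became -0.278 without that array.

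**Figure D3:**
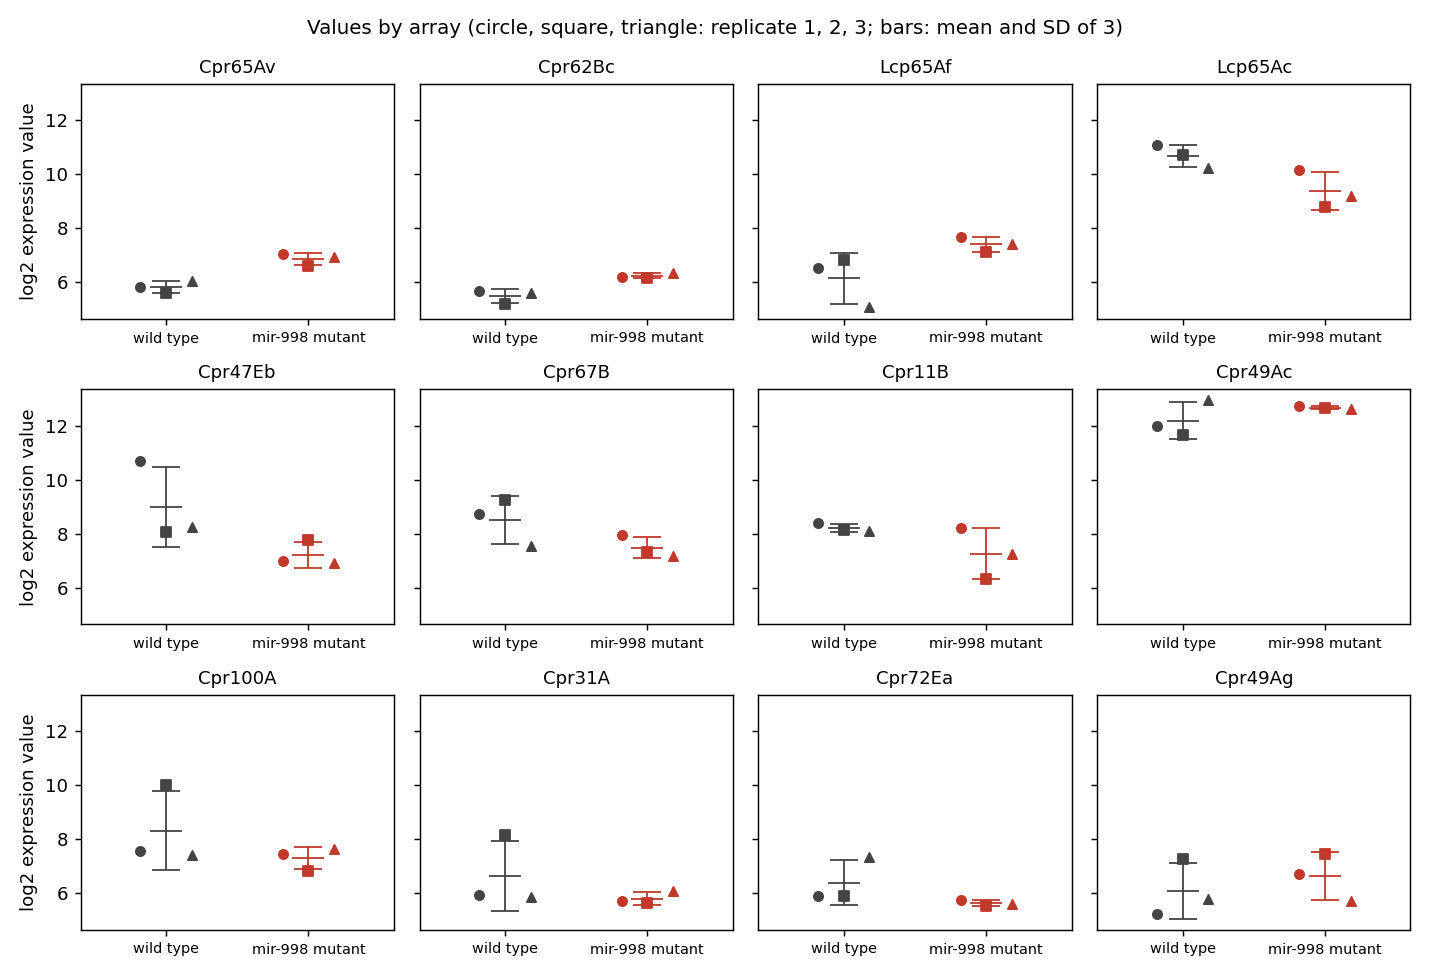
Log2 expression value on each array (points) with the mean and SD of each genotype (bars) for a selection of the cuticle protein genes named in the text, wild type and *mir-998* mutant, n = 3 arrays each. Some genes with a larger difference than *Cpr49Ac* (0.48) and *Cpr49Ag* (0.55), such as *Lcp9* (0.75), are not shown. *Cpr65Av* and *Cpr62Bc* separate the genotypes with little spread, whereas *Cpr100A*, *Cpr31A* and *Cpr72Ea* each have 1 high wild type array.

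The Tweedle genes differed little between the genotypes. All 24 *Twdl* genes had differences between -0.18 and 0.23. An unadjusted p at or under 0.05 (limma) was seen for 0 of 24, against 13.9% of all genes read. Non-overlapping arrays were seen for 4 of 24 (16.7%), near the 18.1% of all genes read. The 95% interval of the difference lay within 1 log2 unit of 0 for all 24, and within 0.5 for 23. *TwdlE* was the exception, with a difference of 0.23 (SE 0.257, adjusted p = 0.846 by limma). For *TwdlT* the difference was -0.14 (SE 0.0857, adjusted p = 0.641 by limma). Of the 24 genes 13 were near background, where a change in a low transcript would be hard to see. *Ccp84Ae* and *Ccp84Ac* differed by -0.05 and -0.21 (adjusted p = 0.918 and 0.576 by limma), and *Acp65Aa* by 0.01 (adjusted p = 0.976). Over all 101 genes the interval lay within 1 unit of 0 for 84 (83.2%), against 93.4% of all genes read.

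A wide replicate spread took up a larger share of the cuticle protein genes than of all genes in both genotypes. The SD over the 3 wild type arrays was at least 0.5 for 13 of the 101 genes (12.9%), against 4.72% of all genes read. All 13 were above background, where they made up 23.6% of the 55 genes, against 6.75% of all genes above background. In the mutant the SD was at least 0.5 for 4 genes (3.96%), against 120 of all genes read. The wild type SD exceeded the mutant SD in 78 of the 101 genes and in 8580 of the 11982 genes read, so that a wider wild type spread was common to the series. By family, 10 *Cpr* genes and 3 *Lcp* genes had a wild type SD of at least 0.5, and 0 of 24 *Twdl* genes did, the highest being 0.469 for *TwdlE*.

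**Figure D4:**
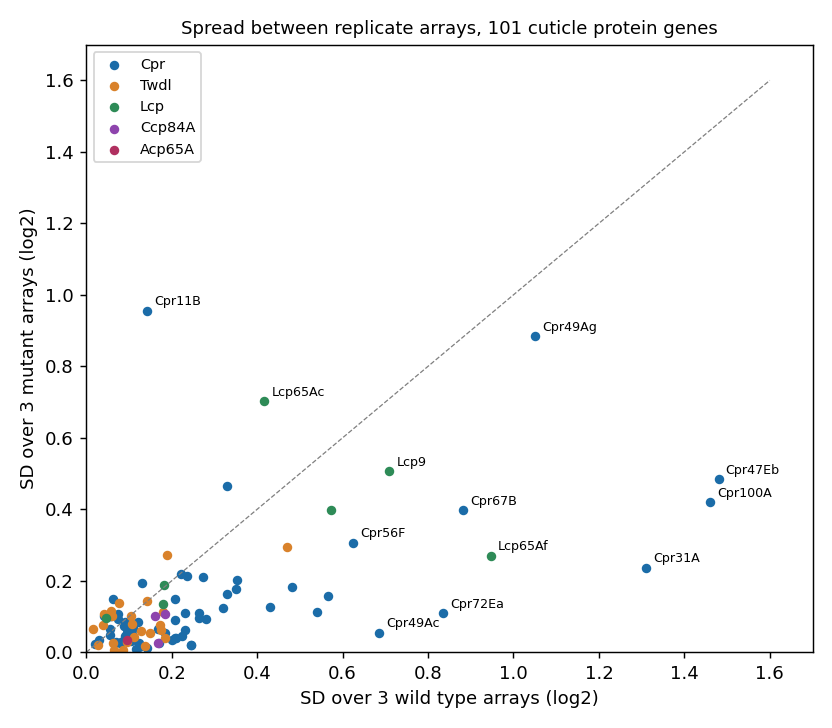
SD of the log2 expression value over the 3 mutant arrays against that over the 3 wild type arrays for each cuticle protein gene, with families in color. *Cpr47Eb*, *Cpr100A* and *Cpr31A* have the widest wild type spread, with SDs of 1.48, 1.46 and 1.31.

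The genes that spread did not do so on the same array. A wild type array stood at least 1 log2 unit from both others for 9 of the 101 genes (8.91%) and for 208 of all genes read (1.74%). Wild type replicate 1 was high for *Cpr47Eb* and *Lcp9*. Replicate 2 was high for *Cpr100A*, *Cpr31A* and *Cpr49Ag* and low for *Cpr56F*. Replicate 3 was high for *Cpr72Ea* and low for *Cpr67B* and *Lcp65Af*. In wild type replicates 1, 2 and 3, cuticle protein genes were 2 of 25, 3 of 32 and 1 of 50 genes that stood apart upward. Downward, they were 0 of 24, 1 of 22 and 2 of 67 genes. In the mutant, *Cpr49Ag* was the only gene of the families with an array apart, with values of 5.22, 7.25 and 5.79 in wild type against 6.73, 7.47 and 5.71 in the mutant, and replicate 2 was the highest array in both genotypes. *Lcp9*, with 7.80, 6.69 and 6.48 in wild type against 8.32, 7.42 and 7.47 in the mutant, was highest in replicate 1 of both genotypes, where the mean of the fat body markers was also highest (9.75 in wild type and 9.48 in the mutant). The part of the fat body markers in the *Lcp9* values was not tested. The 10 measured markers of trachea and larval epidermis, tissues that make cuticle, had a list mean of 7.54 to 7.66 over the 6 arrays, with 5 positive and 5 negative differences. Of these, *sha* and *Osi19* were near background, and *Gasp*, *grh* and *ovo* had wild type means of 12.89, 12.17 and 11.48. The list mean is therefore no measure of how much of these tissues was present.

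The genes were also read by their place in the genome. On chromosome arm 3L, 11 of the genes lie in a row with gaps of at most 50 kb, from *Lcp65Ag3* to *Cpr65Az*, and 7 of them were above background. Of the 11, 6 had positive and 5 negative differences, from -1.31 (*Lcp65Ac*) to 1.25 (*Lcp65Af*), with a median of 0.01 and 1 gene called, *Cpr65Av*. *Cpr65Au*, the measured gene before *Lcp65Af* in this order, had 5.54, 5.67 and 4.78 in wild type against 4.71, 4.44 and 4.79 in the mutant, a difference of -0.68 (adjusted p = 0.324 by limma). Wild type replicate 3 lay at the mutant level, and without it the difference was -0.958 (adjusted p = 0.0257). All 3 mutant values of *Cpr65Au* were at or under the brightest control probe set of their array, so these are only upper bounds. With the mutant values set to that control, the wild type mean was 1.46-fold higher, and 1.76-fold without wild type replicate 3. Both are point estimates without an interval, and the difference over all 6 arrays did not pass the test. *Lcp65Ad*, between *Cpr65Aw* and *Lcp65Ac*, overlapped between the genotypes at 7.05, 6.69 and 5.93 against 7.39, 6.62 and 7.18. The Tweedle row of 11 genes from *TwdlM* to *TwdlD* on 3R had differences from -0.18 to 0.15 and 0 genes called. Of the 7 genes from *Cpr47Ea* to *Cpr47Eg* on 2R, *Cpr47Eb* had -1.78 and the highest of the others had 0.13. Differences of a single sign were seen in the rows *Cpr65Ea* to *Cpr65Ec* (3 positive) and *Ccp84Ag* to *Ccp84Ac* (3 negative), where 0 genes were called. The other rows of 3 or more genes had both signs. *Cpr65Ea* and *Cpr65Eb* differed by only 0.04 and 0.05, and *Cpr65Eb* and *Ccp84Ag* were near background. Rows of so few genes can easily share a sign, and no pattern is read from this.

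**Figure D5:**
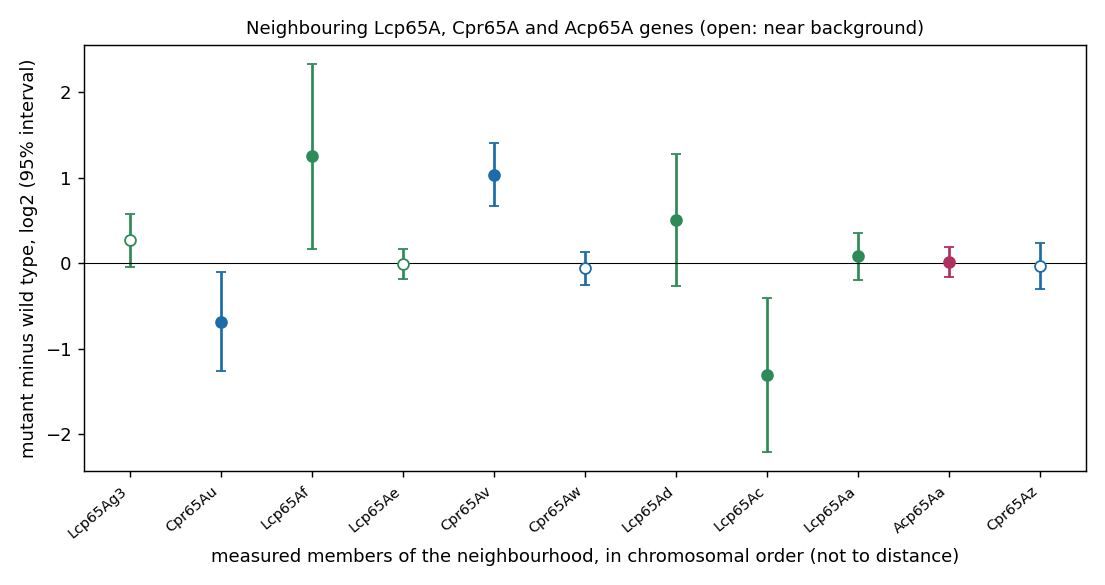
Difference in log2 expression value between *mir-998* mutant and wild type (with the 95% interval from limma, n = 3 arrays per genotype) for the 11 measured genes of the *Lcp65A* group in chromosomal order, open points marking genes near background. *Lcp65Af* and *Cpr65Av* lie above 1 and *Lcp65Ac* lies under -1, and *Lcp65Ad*, beside *Lcp65Ac*, is at 0.51.

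Probe sets shared by several genes were read separately. There were 6 such probe sets that include a name of these families, and 0 of 6 passed the test. Their unadjusted p-values by limma were 0.0208, 0.842, 0.796, 0.00236, 0.00485 and 0.0432. Of all genes read, 13.9% had an unadjusted p at or under 0.05. The lowest difference was -0.64 for the probe set of *Ccp84Aa* and *Ccp84Ab* (adjusted p = 0.286 by limma), and the probe set of *Cpr67Fa1* and *Cpr67Fa2* gave -0.41 (adjusted p = 0.0941). *Cpr67Fa1* and *Cpr67Fa2* also have probe sets of their own, with differences of -0.09 and 0.21, so the probe sets of this pair disagree. Those named for *Obp57d* and *Cpr57A* also differed from each other, at 0.05 and -0.54 (adjusted p = 0.974 and 0.141 by limma). That of *Lcp65Ag1* and *Lcp65Ag2* gave 0.45 (adjusted p = 0.398 by limma). Of the 121 genes that RefSeq names with these symbol starts, 13 had no probe set named for them, among them *Lcp1* to *Lcp4*, and were not analysed here.

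Finally, lists of other genes related to cuticle were counted. Of 21 measured genes of chitin synthesis and matrix assembly, 1 rose and 0 fell. This was the chitin deacetylase-like gene *Cda5*, at 5.49, 5.71 and 5.71 in wild type against 6.73, 6.55 and 6.90 in the mutant, a difference of 1.09 (SE 0.112, adjusted p = 0.00794 by limma) with no overlap. Without mutant replicate 1 its adjusted p was 0.0515. The chitin synthase gene *kkv* had a difference of -0.08. A mixed list of 14 genes held cuticle protein genes outside the name rule, such as *Pcp* and *Tb*, apical matrix genes, and also *f* and *fw*. Of these 14, 0 passed the test in either direction, with 12 positive and 2 negative differences. The positive ones include *f* and *fw*, at 0.35 and 0.23. The largest were those of the zona pellucida domain genes *dy* (0.59, adjusted p = 0.358 by limma) and *neo* (0.36, adjusted p = 0.477). The pupal cuticle genes *Edg78E* and *Edg84A* were near background, with wild type means of 4.08 and 4.40. Among 11 tanning and pigment genes 0 passed, the largest differences being those of *t*, a hydrolase gene of the dopamine pathway (-1.35, adjusted p = 0.152 by limma), and *Pu*, which encodes GTP cyclohydrolase (-0.95, adjusted p = 0.339).

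Of 19 measured genes of the ecdysone response, which times cuticle gene transcription, 3 rose and 0 fell, while 0.968% of all genes read were higher. *Blimp-1*, an ecdysone-induced repressor, was higher by 1.67 (adjusted p = 0.0221 by limma), and *MsrA*, a methionine sulfoxide reductase gene, by 0.88 (adjusted p = 0.00381). *Eip93F*, an ecdysone-induced transcription factor, was at 4.25, 4.79 and 4.61 in wild type, under the brightest control probe set of each array, against 5.61, 5.86 and 5.41 in the mutant. With the wild type values set to that control, the mutant mean was 1.68-fold higher, a point estimate without an interval. For the values as read, the difference of *Eip93F* was 1.08 (adjusted p = 0.0382 by limma). *MsrA* was called in all 14 alternatives, *Blimp-1* in 9 of 14 (adjusted p up to 0.117) and *Eip93F* in 6 of 13 (adjusted p up to 0.159). The last pair lost the call when single arrays were left out: *Blimp-1* without any 1 array other than wild type replicate 3, and *Eip93F* without any 1 array. The difference of *Eip93F* was 0.495 when its probe sets were averaged (adjusted p = 0.128). In this list 15 differences were positive and 4 negative, with a median of 0.27 against 0.0033 for all genes read. The nuclear receptor gene *ftz-f1* did not pass the test (adjusted p = 0.249 by limma), with means of 7.58 in wild type and 6.58 in the mutant. The list mean was 9.06 and 9.13 in wild type replicates 1 and 2, 9.44 in wild type replicate 3 and 9.58 to 9.72 in the mutant, and its part in the cuticle protein values was not tested.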

How the data were processed

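Larval eye disc RNA of 3 wild type and 3 *mir-998* mutant samples was hybridized to Affymetrix arrays of 18952 probe sets. The authors deposited log2 expression values made with RMA (background correction, quantile normalization and probe summary), with 2 decimals. RMA brings arrays to a common distribution, so a shift of most genes would not be seen, and, with no read depth on an array, precision depends on the number of arrays. After 183 control probe sets were left out, the linear model of limma 3.58.1 (R 4.3.3, lmFit and eBayes, no covariate) was applied to 18769, after it was tested on simulated data, and p-values were adjusted by Benjamini-Hochberg over all of them, with a threshold of 0.05. Platform annotation updated through RefSeq (assembly Release 6) named 1 gene for 13647 probe sets, several for 402 and none for 4720. The probe set with the highest mean stood for a gene. RefSeq also gave gene order, in its own assembly. Members and gene lists were chosen with earlier results of these data known. Genes named are those called, the 10 with the largest change (11 with a tie), the 2 highest in each family, the 6 with the largest wild type SD, and called or largest genes of each list. *Cpr56F*, *Cpr65Au*, *Cpr65Ec*, *Cpr66D*, *Cpr72Ec*, *Lcp65Ad*, *TwdlD*, *Edg78E*, *Edg84A*, *kkv*, *NimC1* and *ftz-f1* were added after their values were seen. So were *Cpr65Ea*, *Cpr65Eb*, *Ccp84Ag*, *TwdlV*, *TwdlX*, *f*, *fw*, *lz* and the genes of the shared probe sets.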

Additional observations from a re-analysis of the deposited data

How the results depend on the processing

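*Cpr65Av* was called in 9 of 14 alternatives, and no gene named here changed direction with a call. A second quantile normalization and array weights each gave 2 higher genes (*Cpr65Av* and *Cpr62Bc*), and leaving out 1 array in turn gave 0 to 2 higher and 0 to 1 lower genes. Without wild type replicate 3, *Cpr65Av* and *Cpr49Ac* (0.863, adjusted p = 0.0288 by limma) were higher and *Cpr65Au* was lower, and without any other array 0 genes were called. With the replicate number as a block, 1 gene was higher and 0 were lower, and 224 of all genes were called against 231. Over all genes, array weights gave 373 calls, and leaving out 1 array gave 90 to 322. The deviations of same-numbered arrays correlated at 0.193, -0.23 and 0.286, and those of arrays with different numbers at -0.404 to 0.222. The titles do not say whether equal numbers pair the samples, and these correlations over few arrays cannot settle it.

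The median log2 fold change of the 101 genes was 0.02 after array medians were subtracted, -0.0633 over the 44 genes left when dim probe sets were removed, and -0.0233 to 0.0217 when 1 array was left out. The *Cpr* median was -0.0967 without dim probe sets and -0.0458 to 0.0208 when 1 array was left out. The *Twdl* median was 0.0226 after a second quantile normalization, 0.035 after array medians were subtracted, 0.0122 with array weights, -0.0733 without dim probe sets and -0.015 to 0.0242 when 1 array was left out. The *Lcp* median was 0.507 without dim probe sets. Adjusting over only the probe sets that stand for genes, an alternative chosen after seeing the data, left 1 higher gene. The signal over background limits the 46 genes near background, for which no change in a low transcript could be read.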
